A study of Sus scrofa domesticus with 28 samples.

Results

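Mid-phase scar was compared with early-phase scar in the sham arm of a red Duroc pig model of dyspigmented hypertrophic scar, in which the other arm received pressure treatment. The 12 biopsies of the comparison, of 28 in the series, were chosen by their titles: 8 were early sham scar and 4 were mid sham scar. Red Duroc is a pig breed whose deep wounds heal with a thick, firm scar that resembles human hypertrophic scar. Each biopsy was hybridised to 1 Agilent pig array, with biopsy RNA in the Cy5 channel and a universal pig reference RNA in the Cy3 channel, and the level of a gene is given as the log2 ratio of Cy5 to Cy3. All biopsies came from 2 juvenile castrated male pigs, numbered 49 and 50. The early group held 1 hyperpigmented (hyper) and 1 hypopigmented (hypo) biopsy from the left and from the right side of each pig. The mid group held 1 hyper and 1 hypo biopsy from the left side of each pig and none from the right. A number in the titles, whose unit is not stated, was 49 for every early sham biopsy and 91 or more for the mid sham biopsies. Control skin from the same pigs (4 biopsies) and late sham scar (4 biopsies) are quoted for reference. With 2 pigs, the p-values measure the spread between biopsies and not that between animals.

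Scar tissue is laid down by fibroblasts, which secrete collagen chains, modify and fold them in the endoplasmic reticulum, and cross-link them outside the cell. Proteoglycans and hyaluronan hold water and space the fibrils, matricellular proteins such as periostin and thrombospondin tie cells to that matrix, and metalloproteinases and their inhibitors remodel it. As a wound matures, matrix production declines and an epidermis with its barrier and signalling genes covers the scar. In a bulk biopsy, fewer cells of a type and less RNA per cell cannot be told apart.

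The signal was well above background for 19594 to 24163 of 43603 probes on the early arrays and for 17906 to 21323 on the mid arrays. After a filter on dim probes, 18770 features were tested, of which 2646 had a gene symbol. Of these 2646, 40 had only a provisional LOC symbol, and the 2606 others are called named genes below. Markers of keratinocytes, fibroblasts and endothelium were present in both groups, and no tested marker of these types was below background on every array of a group. There were 3 arrays that stood apart. Fits that left them out are given for the matrix and secretory lists, some other list medians and the number of features called. The values of single genes and the other list counts are from the fit of all arrays unless stated. The mid hypo array of pig 50 had a mean over the tested genes of the fibrillar collagen list of 3.41, within the early range of 2.94 to 4.14. The other mid arrays were at 1.84 to 2.41. The mid hypo array of pig 49 had a mean over phagocyte markers of 1.0 against -1.27 to -1.02 on the other mid arrays, and over lysosomal genes of 1.66 against -0.33 to 0.31. The left early hypo array of pig 50 had a mean over skeletal muscle markers of -0.0025, against an early median of -2.45, and a mean over keratinocyte markers of -1.12, against an early median of 0.92.

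Between early and mid sham scar, 15 of 28 tested genes of the collagen matrix and 7 of 17 of the secretory pathway fell, while none of either rose. These counts are from the fit of all arrays, and the lists were chosen with earlier results of these data known. None of these genes passed with left-side arrays alone, or with no limit on the local background, as described below. Of 18770 features, 1207 (6.43%) passed an adjusted p of 0.05 in limma with Benjamini-Hochberg adjustment. Of these, 789 (4.2%) were lower in mid scar and 418 (2.23%) were higher, and the median difference over all features was 0.04. The larger differences were mostly decreases: 282 features fell at least 2-fold and 65 rose at least 2-fold. Among the 2606 named genes 163 passed (6.25%), 115 lower and 48 higher. The 8 early and 4 mid values did not overlap for 236 of the 1207 features (19.6%), against 2.1% of all features. The 1207 were called on these same values, so this share is a description and no test. All 1196 of them with a value in both pigs had the same sign in both, against 64.3% of all features, but they were called on these same pigs.

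The 4 mid arrays did not contribute alike. On the mid hyper array of pig 49, 96.5% of the 789 lower features lay below all 8 early values, on the mid hyper array of pig 50 96.8%, and on the mid hypo array of pig 49 92.1%. On the mid hypo array of pig 50 this share was 25.1%. For the 418 higher features, the share above all 8 early values was 98.3% and 98.8% on the hyper arrays of pigs 49 and 50, and 51.6% and 29.7% on the hypo arrays. Over all features these arrays, in the same order, lay below the early range for 22.1, 22.1, 25.5 and 11.5%. They lay above it for 28.9, 29.0, 18.8 and 9.63%. The 789 and 418 features had been called on these same arrays, so their shares are a description and no test. The title number was 91 both for the mid hyper biopsy of pig 49 and for the mid hypo biopsy of pig 50.

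The matrix genes were counted from 4 lists: fibrillar collagens with COL8A1, collagen processing, proteoglycans with hyaluronan enzymes, and matricellular proteins. Of the 28 members tested, 15 (53.6%) were lower in mid scar and none was higher, beside 4.2% lower over all features. The median difference of the 28 was -1.36 on the log2 scale, and 26 had a negative difference. The number of lower genes was 16 without the mid hypo array of pig 50, 17 without the left early hypo array of pig 50 and 0 without the mid hypo array of pig 49, with medians of -1.55, -1.41 and -1.27. Without the mid hyper array of pig 49 or of pig 50 it was 1 or 2, and without any 1 of the other early arrays 8 to 15, while the median stayed between -1.45 and -1.24 in these fits. The 8 were counted without the right hyper or left hypo array of pig 49 or the right hypo array of pig 50, and the count was 9 without the left hyper or right hypo array of pig 49.

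**Figure D1:**
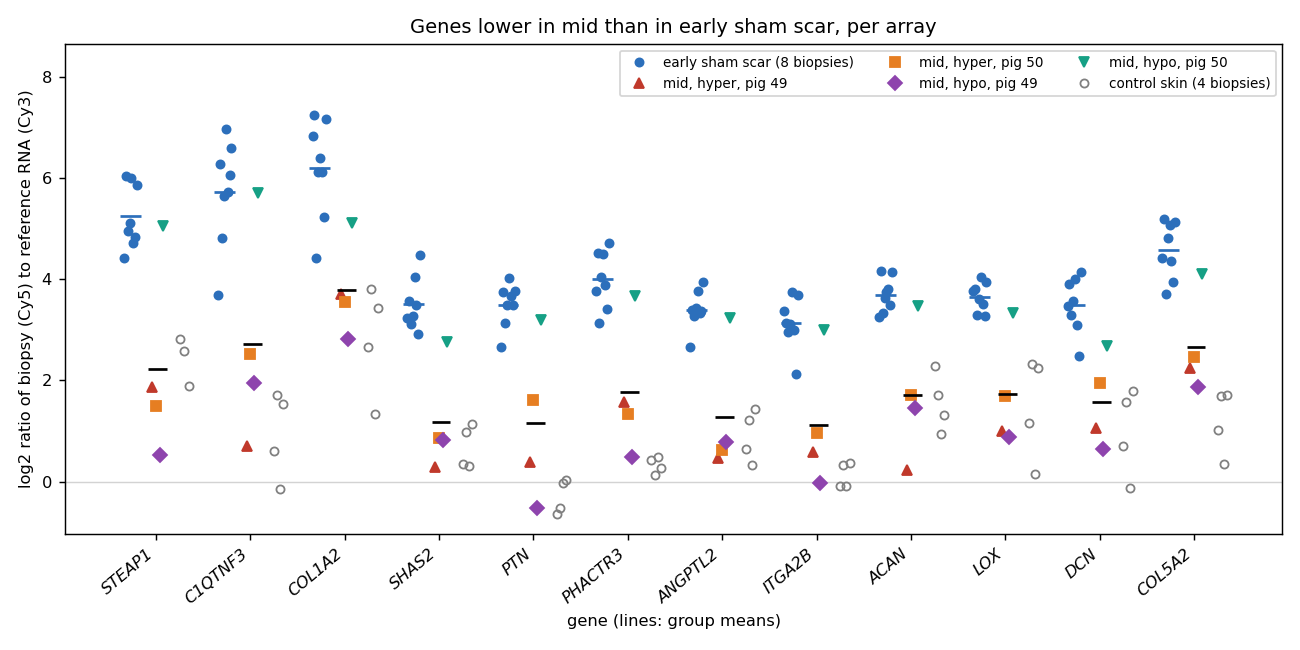
Log2 ratio of biopsy to reference RNA for the 12 named genes with the largest decrease, per array: 8 early sham biopsies (blue circles, blue line the mean), 4 mid sham biopsies (one symbol each, black line the mean) and up to 4 control skin biopsies (open circles). The mid hypo biopsy of pig 50 (green triangle) sat close to or within the early values for all 12 genes, and the other 3 mid biopsies sat below all early values.

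Fibrillar collagens fell where they passed the test. COL1A2, which encodes a chain of type I collagen, the main fibril of skin and scar, had an early log2 ratio of 4.41 to 7.25 with a median of 6.26. Its mid values were 3.70 and 3.55 in the hyper scars of pigs 49 and 50 and 2.82 and 5.10 in their hypo scars. The mid hypo scar of pig 50 lay inside the early range and the other 3 lay below it. The difference was -2.39 ± 0.66 (SE), 5.25-fold lower, with an adjusted p of 0.036. Control skin was at 1.35 to 3.80 and late sham scar at 2.88 to 5.67, so that the 3 low mid values lay within the range of control skin. COL5A2, a chain of the type V collagen that regulates fibril diameter, had early values of 3.71 to 5.19 with a median of 4.61. Its mid values were 2.24, 2.46, 1.87 and 4.10 in the same order of biopsies. Again only the mid hypo scar of pig 50 overlapped the early scars, and the difference was -1.91 ± 0.46 with an adjusted p of 0.0202. COL5A1, the partner chain of COL5A2, differed by -1.15 ± 0.42 and did not pass (adjusted p 0.0992), nor did COL8A1 (-1.1 ± 0.55) or COL5A3 (0.22 ± 0.17). Of the 6 genes of the fibrillar collagen list on the array 5 were tested, 2 of them lower, with a median difference of -1.15. Over all features 4.2% were lower. The list held COL8A1 and the untested COL10A1, which are not fibril-forming collagens.

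Of 6 genes of collagen processing, 3 were lower, beside 4.2% over all features, and none was higher, with a median of -1.37. LOX, lysyl oxidase, cross-links collagen and elastin outside the cell. Early LOX values were 3.26 to 4.04 with a median of 3.69, and mid values were 1.01 and 1.69 in hyper and 0.88 and 3.34 in hypo scar of pigs 49 and 50. The first 3 were below every early biopsy and the last was within the early range. The difference was -1.92 ± 0.43, 3.79-fold lower (adjusted p 0.0144). P4HA1, the prolyl hydroxylase subunit that stabilises the collagen triple helix, was at 1.14 to 1.81 in early scar and at -0.65, -0.08, 0.66 and 1.40 in mid scar (difference -1.15 ± 0.26, adjusted p 0.0144). All 7 P4HA1 probes went the same way, and its lower mid values were those of the hyper scars. FKBP10, a collagen chaperone of the endoplasmic reticulum, was at 3.30 to 4.19 in early scar and at 2.37, 2.34, 1.38 and 3.25 in mid scar. The FKBP10 groups did not overlap, and the difference was -1.41 ± 0.34 with an adjusted p of 0.0205. SPARC, a collagen-binding glycoprotein (-1.82 ± 0.55, adjusted p 0.0519), CTSK, the collagen-degrading cathepsin K (-1.33 ± 0.44, adjusted p 0.0715), and SERPINH1, the collagen chaperone HSP47 (-1.02 ± 0.33, adjusted p 0.0699), did not pass.

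Proteoglycans and hyaluronan enzymes showed the highest count among the matrix lists, with 6 of 10 tested genes lower, none higher and a median of -1.25. Over all features 4.2% were lower. SHAS2, the pig symbol for hyaluronan synthase 2, makes the long hyaluronan chains of early wound matrix. Its early values ran from 2.92 to 4.48 with a median of 3.38. In mid scar it was at 0.30 and 0.85 in the hyper scars and 0.82 and 2.75 in the hypo scars of pigs 49 and 50. All 4 mid biopsies were below all 8 early ones, 3 of them at the level of control skin (0.30 to 1.13). The difference was -2.33 ± 0.40, 5.04-fold lower, with an adjusted p of 0.0053. The related synthases HAS1 (-0.74 ± 0.32) and HAS3 (0.23 ± 0.20) did not pass.

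ACAN encodes aggrecan, the large proteoglycan best known from cartilage. It was at 3.26 to 4.15 in early scar with a median of 3.68, and at 0.23, 1.71, 1.45 and 3.46 in mid scar. The lowest value was that of the mid hyper scar of pig 49, and the highest overlapped the early range. The difference was -1.98 ± 0.55 (adjusted p 0.0365), and 2 of the 3 ACAN probes had this direction. DCN, decorin, is a small leucine-rich proteoglycan that coats collagen fibrils. Early DCN values were 2.48 to 4.13 with a median of 3.52, and mid values were 1.05, 1.95, 0.64 and 2.68. The difference was -1.92 ± 0.40 with an adjusted p of 0.011, and all 4 DCN probes agreed in direction. ASPN, asporin, a close relative of decorin, was at 5.28 to 6.33 in early and at 3.38, 4.0, 2.60 and 5.73 in mid scar (difference -1.85 ± 0.51, adjusted p 0.0369). Its mid values stayed above control skin (0.37 to 2.05) on every array. VCAN, versican, a hyaluronan-binding proteoglycan of provisional matrix, was at 2.74 to 4.14 in early and at 0.94, 2.15, 2.17 and 3.32 in mid scar (difference -1.48 ± 0.41, adjusted p 0.0359). HAPLN3, a link protein that joins hyaluronan to proteoglycans, changed less, by -0.42 ± 0.12 (adjusted p 0.0468), with early values of -0.07 to 0.60 and mid values of -0.52 to -0.11 that did not overlap. LUM, lumican, another fibril-coating proteoglycan, differed by -1.02 ± 0.31 and did not pass (adjusted p 0.0549).

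Of 7 matricellular and fibrillin genes, 4 were lower, beside 4.2% over all features, and none was higher, with a median of -1.40. POSTN, periostin, a matricellular protein abundant in wounds, was at 5.78 to 7.98 in early scar with a median of 7.47. Mid values were 5.22 and 5.99 in hyper and 4.06 and 5.97 in hypo scar of pigs 49 and 50. The biopsies of pig 50 fell inside the early range and those of pig 49 below it. The difference was -1.89 ± 0.44, 3.72-fold lower (adjusted p 0.016), and all 6 probes agreed in direction. Control skin was at 3.27 to 4.67 and late sham scar at 5.12 to 7.25. THBS1, thrombospondin 1, an adhesive glycoprotein that can activate TGF-beta, was at 1.03 to 2.67 in early and at -0.07, -0.16, -0.30 and 0.59 in mid scar. The THBS1 groups did not overlap, and the difference was -1.49 ± 0.44 (adjusted p 0.0461). MGP, matrix Gla protein, an inhibitor of calcification, was at 0.24 to 2.15 in early and at -1.04, -0.45, 0.18 and 1.13 in mid scar (difference -1.40 ± 0.37, adjusted p 0.0296). FBN1, fibrillin 1, the core of microfibrils, differed by -1.01 ± 0.25 (adjusted p 0.023), with early values of 2.11 to 2.93 and mid values of 0.67, 1.32, 1.89 and 2.34. TNC, tenascin C, differed by -1.55 ± 0.52 without passing (adjusted p 0.079).

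Among 15 tested proteases and inhibitors, 3 were lower and 1 was higher, with a median of -0.20. Over all features 4.2% were lower and 2.23% higher. MMP11, stromelysin 3, a metalloproteinase of stromal cells, was at 1.92 to 3.53 in early scar with a median of 2.56. Its mid values were 0.25 and 0.20 in hyper and 0.52 and 2.23 in hypo scar of pigs 49 and 50. The last of these was inside the early range and far from the other 3, and the difference was -1.85 ± 0.36, 3.62-fold lower (adjusted p 0.00809). MMP14, the membrane-bound collagenase that activates pro-MMP2, was at 2.98 to 4.64 in early and at 1.35, 1.68, 2.16 and 3.46 in mid scar (difference -1.69 ± 0.41, adjusted p 0.0215). TIMP2, the inhibitor that docks pro-MMP2 to MMP14, was at 2.21 to 3.55 in early and at 0.90, 1.27, 2.04 and 2.87 in mid scar (difference -1.14 ± 0.26, adjusted p 0.0145). MMP2 itself, a gelatinase, differed by -1.05 ± 0.33 and did not pass (adjusted p 0.0594). SERPINE2, protease nexin 1, an inhibitor of thrombin and plasminogen activators, was the member that rose, by 0.74 ± 0.21 (adjusted p 0.043), from -2.27 to -0.62 in early to -1.01 to -0.40 in mid scar, with overlapping groups.

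Outside the matrix lists, the largest decrease was that of STEAP1. STEAP1, a membrane protein of the metalloreductase family, was at 4.42 to 6.03 in early scar with a median of 5.03. Its mid values were 1.87 and 1.5 in hyper and 0.53 and 5.04 in hypo scar of pigs 49 and 50. The mid hypo scar of pig 50 lay at the early median while the other 3 lay below the range of control skin (1.88 to 2.82). The difference was -3.01 ± 0.60, 8.03-fold lower, with an adjusted p of 0.0105. C1QTNF3, a secreted protein of the C1q and TNF-related family, was at 3.68 to 6.97 in early scar with a median of 5.89, and at 0.69, 2.52, 1.95 and 5.70 in mid scar. It showed the same split, and the difference was -3.0 ± 0.71 (adjusted p 0.0171). The related C1QTNF2 (-1.34 ± 0.37, adjusted p 0.0346) and C1QTNF6 (-1.13 ± 0.29, adjusted p 0.0275) also fell, and were looked up after their values were seen.

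PTN, pleiotrophin, a heparin-binding growth factor, was at 2.66 to 4.01 in early scar with a median of 3.57. In mid scar it was at 0.38, 1.61, -0.52 and 3.18, and the difference was -2.33 ± 0.59, 5.03-fold lower (adjusted p 0.0246). All 3 PTN probes had this direction, and control skin was at -0.63 to 0.04. IGFBP5, a binding protein of insulin-like growth factors, was at 0.56 to 2.21 in early and at -0.29, 0.53, -0.60 and 0.70 in mid scar (difference -1.27 ± 0.34, adjusted p 0.0324). AXL, the receptor tyrosine kinase for GAS6, was at 0.59 to 1.21 in early and at -0.46, 0.23, -0.33 and 0.83 in mid scar (difference -0.85 ± 0.23, adjusted p 0.0344). With C1QTNF3 and PTN, these were the 4 of 14 tested growth factor genes that were lower. None of the 14 was higher, and the median was -0.50. Over all features 4.2% were lower and 2.23% higher. IGF1 (-0.12 ± 0.17) and IGF2 (-0.15 ± 0.31), the growth factors themselves, did not pass.

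PHACTR3, a regulator of protein phosphatase 1 and actin, was at 3.14 to 4.72 in early scar and at 1.57, 1.34, 0.49 and 3.66 in mid scar (difference -2.23 ± 0.55, adjusted p 0.0215). ANGPTL2, a secreted angiopoietin-like protein, was at 2.66 to 3.95 in early and at 0.48, 0.63, 0.78 and 3.24 in mid scar (difference -2.12 ± 0.44, adjusted p 0.0106). ITGA2B, the integrin alpha chain known from platelets, was at 2.12 to 3.75 in early and at 0.58, 0.96, -0.02 and 3.0 in mid scar (difference -2.01 ± 0.45, adjusted p 0.0142). The ANGPTL2 probe was well above background on 2 of the 4 mid arrays, so that its exact difference is uncertain. For these 3 genes the mid hypo scar of pig 50 lay within the early range and the other 3 mid scars lay below it. ANGPTL2 was the single endothelial list member of 20 tested that passed.

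Of 17 tested genes of the secretory machinery of the endoplasmic reticulum (ER), 7 were lower and none was higher. Over all features 4.2% were lower. The median of the 17 was -0.40, and 16 had a negative difference. XBP1, the transcription factor that expands the secretory apparatus, was at -0.02 to 0.44 in early scar and at -0.89, -0.80, -1.29 and 0.14 in mid scar (difference -0.92 ± 0.19, adjusted p 0.0106). The mid hypo scar of pig 50 alone stayed within the early range, and all 6 XBP1 probes agreed in direction. RPN1, RPN2 and DDOST, subunits of the oligosaccharyltransferase that adds N-glycans, fell by 0.76 ± 0.18 (adjusted p 0.0161), 0.72 ± 0.19 (adjusted p 0.0288, with 1 early spot left out) and 0.66 ± 0.17 (adjusted p 0.0244). HSP90B1, the ER chaperone GRP94, was at -0.82 to 0.14 in early and at -1.18, -0.91, -0.86 and -0.85 in mid scar. Its 4 mid values were close to each other and below all early ones, and the difference was -0.68 ± 0.15 (adjusted p 0.0144, 8 of 8 probes in this direction). SPCS1, of the signal peptidase, and TMED10, a cargo receptor of transport vesicles, fell by 0.41 ± 0.11 (adjusted p 0.0357) and 0.40 ± 0.12 (adjusted p 0.0481). CALR (-0.38 ± 0.22) and CANX (0.17 ± 0.17), the lectin chaperones, did not pass. CKAP4, a sheet-forming ER membrane protein, and TMED3, a relative of TMED10, were picked after their values were seen and fell by 1.32 ± 0.35 (adjusted p 0.032) and 1.25 ± 0.29 (adjusted p 0.0162). The count of lower ER genes was 7 without the mid hypo array of pig 50, 9 without the left early hypo array of pig 50, and 0 without the mid hypo array of pig 49, where the median was -0.42. Without the mid hyper array of pig 49 or of pig 50 it was 1 or 0. Without 1 of the other early arrays it was 4 to 6, the 4 being without the right hyper or right hypo array of pig 50 or the right hypo array of pig 49. It was 3 with the values that the authors deposited.

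**Figure D2:**
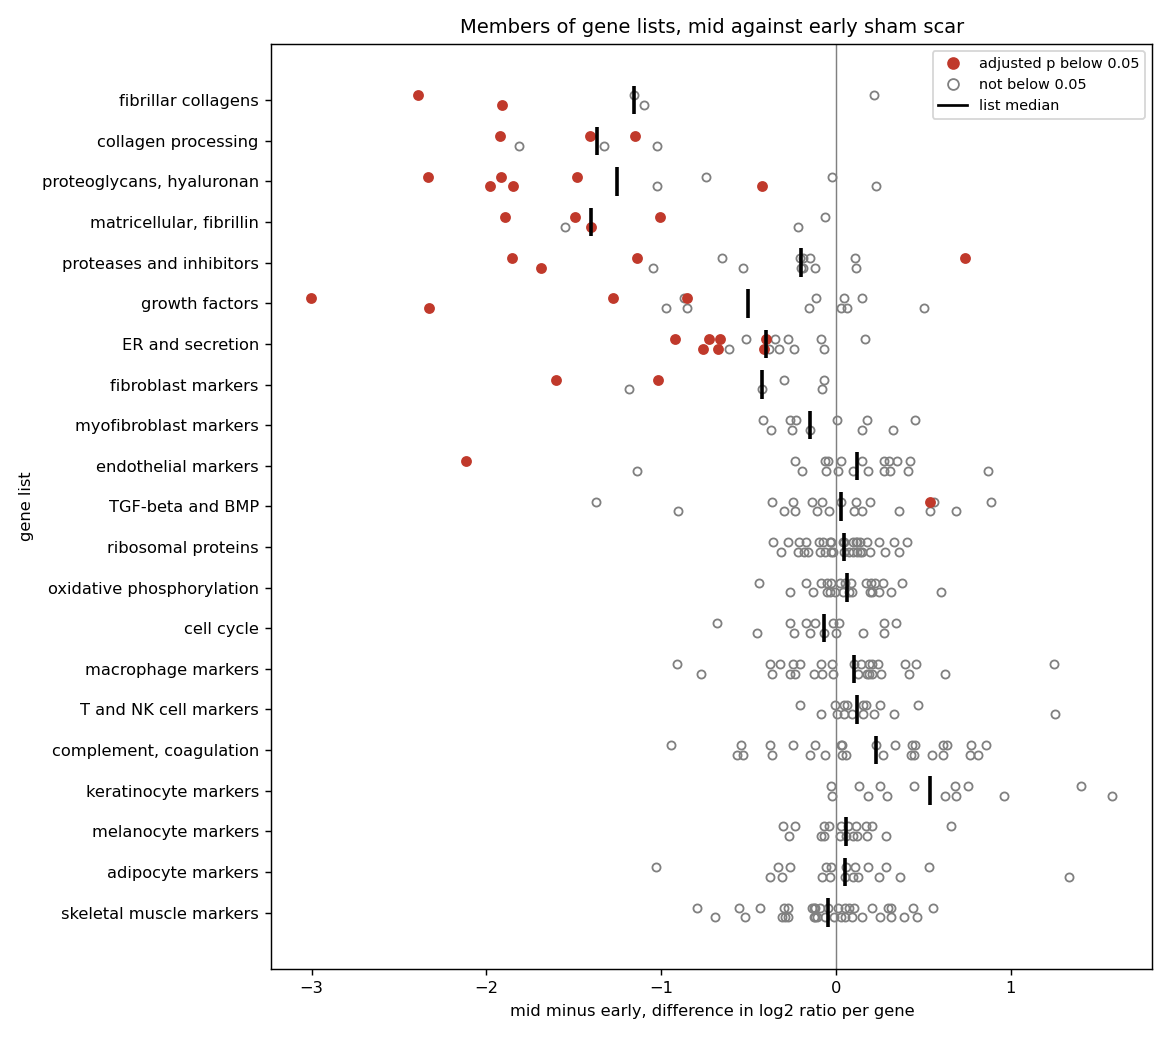
Difference between mid and early sham scar (log2 scale) for every tested member of 21 gene lists, with one circle per gene, filled where the adjusted p was below 0.05, and a black line at the list median. The matrix lists have medians between -1.15 and -1.40, with COL5A3 and HAS3 right of 0. The medians are -0.50 for growth factors, -0.42 for fibroblast markers, -0.40 for the ER list and 0.54 for keratinocyte markers. Those of the other lists shown lie between -0.20 and 0.23.

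Some markers of fibroblasts fell as well. Over 7 fibroblast markers the mean log2 ratio was 1.28 to 2.41 on the early arrays and 0.49, 0.89, 0.85 and 1.37 on the mid arrays, in the order hyper 49, hyper 50, hypo 49, hypo 50, against 0.09 to 0.78 in control skin. Of these 7, 2 fell, beside 4.2% lower over all features, and all 7 had a negative difference. CDH11, cadherin 11 of mesenchymal cells, was at 3.0 to 3.94 in early and at 0.93, 1.60, 2.03 and 2.91 in mid scar, without overlap (difference -1.60 ± 0.35, adjusted p 0.0131). SGCE, epsilon-sarcoglycan of the dystrophin complex, fell by 1.02 ± 0.21 (adjusted p 0.0106). THY1, a common surface marker of fibroblasts, differed by -0.30 ± 0.16 and did not pass. All 7 markers were well above background on every early array and 5 of them on every mid array. The part of fibroblast number in the fall of the matrix genes was not tested.

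None of 11 myofibroblast and smooth muscle markers passed, and their median was -0.15. VCL, vinculin, differed by -0.37 ± 0.14 (adjusted p 0.116), and MYL9, the smooth muscle myosin light chain, by -0.25 ± 0.20. Beside ANGPTL2, the 19 other endothelial genes did not pass, among them VCAM1 (0.87 ± 0.42) and CLDN5 (0.42 ± 0.27). None of 15 cell cycle genes passed, with a median of -0.07. None of 35 ribosomal protein genes passed, with a median of 0.04, and none of 26 genes of oxidative phosphorylation, with a median of 0.06.

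In the TGF-beta and BMP list, 1 of 21 tested genes passed and the median was 0.03. INHBA, the activin A subunit, rose by 0.54 ± 0.15 (adjusted p 0.0364), from -0.50 to 0.14 in early scar to 0.91, 0.51, 0.25 and -0.19 in mid scar. Its 2 probes disagreed in direction, and with the mean of both the difference was -0.35. CTGF, a fibrogenic matricellular protein induced by TGF-beta, was at 2.79 to 4.26 in early and at 1.12, 1.93, 2.59 and 3.06 in mid scar, a difference of -1.37 ± 0.46 that did not pass (adjusted p 0.0765). TGFB3 differed by -0.90 ± 0.32 (adjusted p 0.0948). PMEPA1, an inhibitor of TGF-beta signalling that is itself induced by it, was looked up after its values were seen and fell by 1.05 ± 0.26 (adjusted p 0.0228). None of 7 WNT pathway genes passed, and their median was -0.33.

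Of the 163 named genes that passed, 123 were in none of the lists, 81 lower and 42 higher. Examples picked after their values were seen are LGALS1, galectin 1, a secreted lectin of mesenchymal cells, and ITGB1, the beta chain of the collagen-binding integrins. LGALS1 was at 3.58 to 4.77 in early and at 1.58, 2.31, 2.92 and 3.58 in mid scar (difference -1.51 ± 0.28, adjusted p 0.00696). ITGB1 was at 1.68 to 1.99 in early and at 0.76, 0.95, 1.30 and 1.56 in mid scar, without overlap (difference -0.73 ± 0.18, adjusted p 0.0238, 6 of 6 probes in this direction). Both genes were higher in hypo than in hyper mid scar. The homeobox gene SIX4 fell by 1.07 ± 0.28 (adjusted p 0.0265).

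The largest increase of a named gene was that of CCL27. CCL27 is a keratinocyte chemokine that draws T cells to the skin. Its early values were 0.28 to 3.17 with a median of 2.14, and its mid values were 4.54 and 4.76 in hyper and 2.87 and 2.06 in hypo scar of pigs 49 and 50. Both hyper scars were above every early biopsy and both hypo scars were inside the early range. The difference was 1.74 ± 0.37, 3.34-fold higher (adjusted p 0.0118), and control skin was at 4.07 to 4.41. CCL28, a related epithelial chemokine, was at -1.38 to 0.13 in early and at 2.07, 1.34, -0.68 and 0.97 in mid scar (difference 1.31 ± 0.35, adjusted p 0.0301). These were 2 of 33 tested cytokine and chemokine genes, beside 2.23% higher over all features. No other of the 33 passed, and the median of the list was 0.02.

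TFAP2C, a transcription factor of surface ectoderm and keratinocytes, was at -0.36 to 3.29 in early scar with a median of 2.58. In mid scar it was at 4.31, 4.51, 2.67 and 3.56, with 3 of 4 biopsies above the early range (difference 1.49 ± 0.42, adjusted p 0.0386). The lowest early value was that of the left hypo array of pig 50. EDARADD, the adaptor of the ectodysplasin receptor of skin appendages, was at 0.01 to 1.59 in early and at 2.21, 2.56, 1.58 and 1.07 in mid scar (difference 1.34 ± 0.25, adjusted p 0.00726). AQP3, the glycerol and water channel of basal keratinocytes, was at -0.46 to 0.91 in early and at 2.17, 1.96, -0.19 and 0.92 in mid scar (difference 0.98 ± 0.26, adjusted p 0.0302). DEFB1, an epithelial antimicrobial beta-defensin, was at -3.67 to -2.59 in early and at -1.66, -1.52, -3.11 and -2.65 in mid scar, again with the hyper scars high. It rose by 0.76 ± 0.14 (adjusted p 0.00726), and its 2 probes disagreed in direction.

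LRRC1, a scaffold protein related to the polarity factor scribble, rose by 1.16 ± 0.29 (adjusted p 0.0239), with 2.41 and 1.58 in the mid hyper and -0.13 and 0.15 in the mid hypo scars against -1.03 to 0.53 in early scar. BTG1, an antiproliferative protein, rose by 1.11 ± 0.24 (adjusted p 0.0114), from -0.14 to 0.61 to values of 2.32, 1.32, 0.74 and 0.31. S1PR5, a receptor for sphingosine 1-phosphate, rose by 0.94 ± 0.27 (adjusted p 0.0449), from 0.13 to 1.41 to values of 1.85, 2.56, 0.32 and 1.42. In all 3 the mid hyper scars were above the early range, and 1 or both hypo scars were within it. Set against the early hypo scars alone, both mid hypo scars were above all of them for LRRC1 and BTG1, and 1 was for S1PR5. None of 13 tested genes of the stress hormone and retinoid list passed, with a median of 0.03. Outside that list, SULT1E1, the estrogen sulfotransferase, was at -2.12 to -1.13 in early and at 0.61, 0.44, -1.50 and -1.16 in mid scar (difference 1.05 ± 0.27, adjusted p 0.0257). DIO2, the deiodinase that activates thyroid hormone, was at -0.54 to 0.10 on 7 early arrays, with 1 spot left out, and at 1.0, 1.83, 0.60 and -0.34 in mid scar (difference 0.98 ± 0.26, adjusted p 0.0286). DHRS7, a short-chain dehydrogenase, was at -1.57 to -0.86 in early and at 0.10, -0.17, -0.25 and -0.83 in mid scar (difference 0.94 ± 0.18, adjusted p 0.00726). Its groups did not overlap and all 6 probes agreed. In Cy5, SULT1E1 was well above background on 6 early and 3 mid arrays, and DIO2 on 4 early and 3 mid arrays. CD82, a tetraspanin, was at -2.04 to -0.67 in early and at 0.29, -0.32, 0.34 and -1.47 in mid scar (difference 0.99 ± 0.29, adjusted p 0.047).

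**Figure D3:**
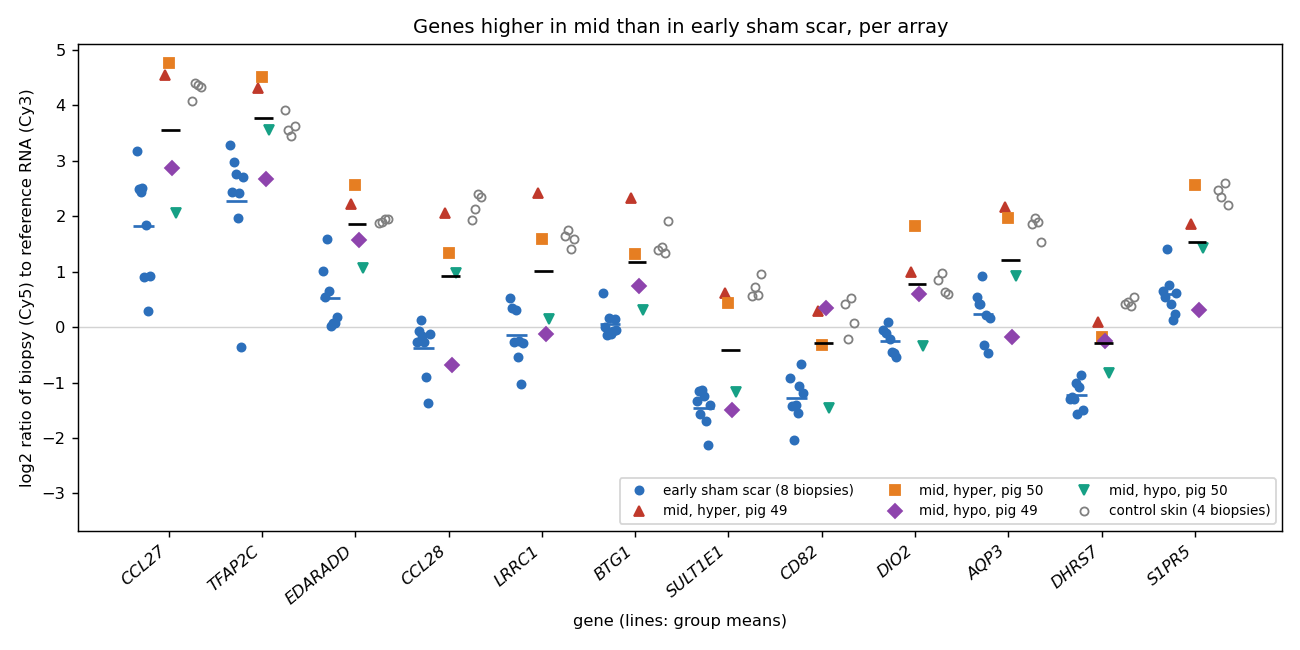
Log2 ratio of biopsy to reference RNA for the 12 named genes with the largest increase, per array, with symbols as in the plot of the genes that fell. Both mid hyper biopsies (red and orange) were above every early value for all 12 genes, while at least 1 mid hypo biopsy overlapped them for every gene but DHRS7. The early values pool hyper and hypo biopsies. Within hyper and within hypo scar the differences were 1.44 and 1.24 for EDARADD, and 1.82 and 0.28 for SULT1E1. No feature passed the test of a different change in hyper and hypo scar.

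None of the keratinocyte markers passed the test. Over the 14 tested keratinocyte markers the mean log2 ratio was 2.10 and 1.68 in the mid hyper scars of pigs 49 and 50 and 0.27 and 1.11 in their hypo scars. On the early arrays it was -1.12 to 1.36 with a median of 0.92, and in control skin 2.30 to 2.54. The median difference of the 14 was 0.54, with 12 positive. Those with an unadjusted p below 0.05 were 6 of 14, all higher, beside 11.2% higher over all features. ESRP1, a splicing factor of epithelia, was at -2.08 to 1.40 in early and at 3.25, 2.84, 0.40 and 1.46 in mid scar, a difference of 1.40 ± 0.45 that did not pass (adjusted p 0.067). The desmosomal cadherin DSG1 (0.96 ± 0.39), E-cadherin CDH1 (0.75 ± 0.32) and the epithelial adhesion molecule EPCAM (0.68 ± 0.30) did not pass either. The median of the list was 0.29 without the left early hypo array of pig 50. Of the 14, 9 were well above background on every early and 12 on every mid array. The part of epidermal content in the increases was not tested.

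Other lists held few or no calls. Of 29 complement and coagulation genes none passed, with a median of 0.23, and 7 were higher and 3 lower at an unadjusted p below 0.05. At that level 11.2% of all features were higher and 11.9% lower. The values nearest the threshold were those of CFB, complement factor B (0.77 ± 0.23, adjusted p 0.0512), and C6 (0.77 ± 0.24, adjusted p 0.0608). Of 33 interferon and antigen presentation genes 1 passed: TAP1, the peptide transporter, was at -0.52 to 0.32 in early and at 1.25, 0.46, 0.56 and 0.13 in mid scar (difference 0.71 ± 0.21, adjusted p 0.0452). Of 14 immediate early and heat shock genes 1 passed: GADD45A, a stress-induced growth arrest gene, fell by 0.94 ± 0.22 (adjusted p 0.0154), with the mid hyper scars at -0.71 and -0.45 and the mid hypo scars at 0.83 and 1.05 against 0.88 to 1.52 in early scar. Of 23 lipid synthesis genes STARD4, a cholesterol carrier, fell by 0.52 ± 0.14 (adjusted p 0.0335; well above background on 2 of 4 mid arrays) and no other passed.

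None of 29 macrophage markers passed (median 0.10), none of 13 phagocyte markers (median -0.21), none of 16 T and NK cell markers (median 0.12) and none of 19 lysosomal genes (median 0.00). Without the mid hypo array of pig 49 the phagocyte median was -0.62 and the lysosomal median -0.47, and without that of pig 50 they were 0.36 and 0.27. CD163, the haemoglobin scavenger receptor of macrophages, was at -3.55 and -2.48 in the mid hyper scars and at -0.68 and -1.01 in the mid hypo scars, against -1.81 to 0.30 in early scar. None of 19 melanocyte markers passed (median 0.06). DCT, dopachrome tautomerase of the melanin pathway, was at 0.24 to 1.1 in early and at 1.94, 2.10, 0.65 and 0.91 in mid scar, a difference of 0.66 ± 0.22 that did not pass (adjusted p 0.0706). None of 20 adipocyte (median 0.05) and none of 37 skeletal muscle markers (median -0.05) passed, and no basement membrane gene of the lists had a named probe.

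When each of the 12 arrays was left out in turn, 17 of the 1207 features passed in all 12 fits, 12 lower and 5 higher, and DEFB1 was the single one with a symbol, beside 13.6% with a symbol among the 1207. AK235866, a pig transcript accession, was at -4.49 to -3.26 in early and at -1.75, -1.37, -1.93 and -2.94 in mid scar. Its groups did not overlap, its 2 probes agreed, and it rose by 1.83 ± 0.25 (adjusted p 0.0012). AK239816 rose by 1.27 ± 0.19 (adjusted p 0.00251), from -1.70 to -1.0 to values of 0.11, 0.44, -0.45 and -0.69. EW226525, an expressed sequence tag, was at 1.28 to 2.13 in early and at -0.08, 0.15, 0.07 and 0.45 in mid scar, and fell by 1.51 ± 0.19 (adjusted p 0.0012). It was well above background on all 8 early arrays and on 1 mid array. The transcript ENSSSCT00000006235 fell by 1.04 ± 0.14 (adjusted p 0.0012), from 1.25 to 1.72 to values of 0.11, 0.35, 0.47 and 0.96. The mid hypo scar of pig 50 was outside the early range for all 4 of these features.

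**Figure D4:**
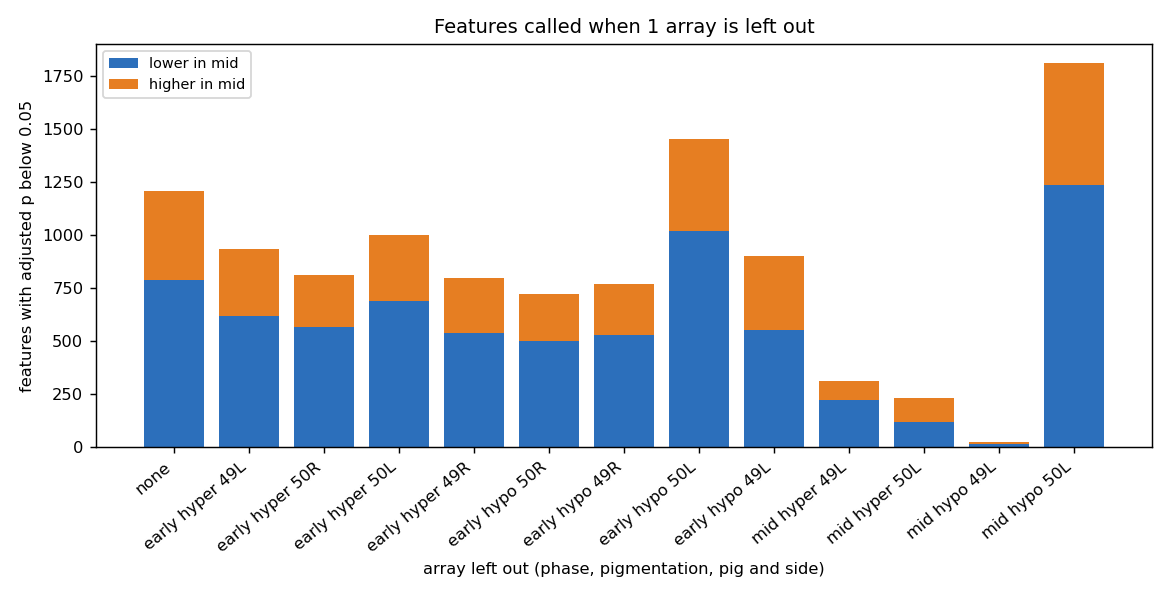
Number of features with an adjusted p below 0.05, lower (blue) and higher (orange) in mid sham scar, with all 12 arrays and with each array left out. The count was 1207 with all arrays, 24 without the mid hypo array of pig 49 and 1811 without the mid hypo array of pig 50.

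The calls rested on the mid arrays. Leaving out an early array left 724 to 1453 features, with 724 without the right hypo array of pig 50, 768 without the right hypo array of pig 49 and 796 without the right hyper array of pig 49. Leaving out a mid hyper array left 311 (pig 49) or 230 (pig 50). Without the mid hypo array of pig 49, 24 features passed, 22 of them among the 1207, and 2820 had an unadjusted p below 0.05. Without the mid hypo array of pig 50, 1811 passed. Among the named genes that passed without the mid hypo array of pig 49 were DEFB1 (0.86 ± 0.17, adjusted p 0.0408), KIF21A, a kinesin motor (1.15 ± 0.22, adjusted p 0.0408), and PVRIG, an inhibitory receptor of lymphocytes (1.11 ± 0.16, adjusted p 0.01). PVRIG was at 2.20 in the mid hypo scar of pig 50 against at most 0.36 on every other array with a value, 1 early and 1 mid spot being left out. With a mid array left out, 1 biopsy stood for its pigmentation group, and its spread was assumed to be that of the other groups.

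Whether the change from early to mid differed between hyper and hypo scar was tested as an interaction. No feature passed in limma with Benjamini-Hochberg adjustment, the smallest adjusted p was 0.408, and 1522 features had an unadjusted p below 0.05. The 3 named genes of lowest p were GFPT1, PHGDH and RSC1A1. GFPT1, the first enzyme of hexosamine synthesis, which feeds glycans and hyaluronan, changed by -1.1 in hyper and by 0.09 in hypo scar. Its mid values were -0.27 and -0.24 in hyper and 0.73 and 0.71 in hypo scar, against 0.40 to 0.94 in early scar, and its probe was well above background on 2 of the 4 mid arrays. PHGDH, the first enzyme of serine synthesis, was at 0.48 and 0.38 in the mid hyper scars and at -1.60 in the mid hypo scar of pig 49, and its spot in that of pig 50 was left out as an outlier. RSC1A1, a regulator of a sodium-glucose transporter, was at -0.03 and 0.11 in the mid hyper and at 1.42 and 1.32 in the mid hypo scars, against 0.99 to 1.53 in early scar. The hyper and hypo biopsies also differed in a code of their titles (a1 and a3) whose meaning is not given, so that the code and pigmentation cannot be told apart.

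Since all mid biopsies came from the left side, the comparison was repeated with the 4 left early arrays alone. No feature passed in limma with Benjamini-Hochberg adjustment. The smallest adjusted p was 0.0543, and 2566 features had an unadjusted p below 0.05. All 1207 features kept their sign, against 91.5% of all features, and 1196 of them had an unadjusted p below 0.05, against 13.7%. The same 8 arrays had entered the fit that called them, so this is a description and no test. The median size of their differences was 0.76 with all arrays and 0.72 with left arrays, and the median SE was 0.19 and 0.23. STEAP1 differed by -2.78 ± 0.77 with left arrays, SHAS2 by -2.26 ± 0.52, COL1A2 by -2.11 ± 0.83 and CCL27 by 1.86 ± 0.45. Adjusted p-values in this fit were 0.16 for SHAS2, 0.168 for CCL27, 0.177 for STEAP1 and 0.282 for COL1A2. Right and left early scar were also compared, a contrast chosen after the data were seen. No feature passed in limma, 255 had an unadjusted p below 0.05, and the median right-minus-left difference was 0.11 over the 789 lower and -0.05 over the 418 higher features.

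**Figure D5:**
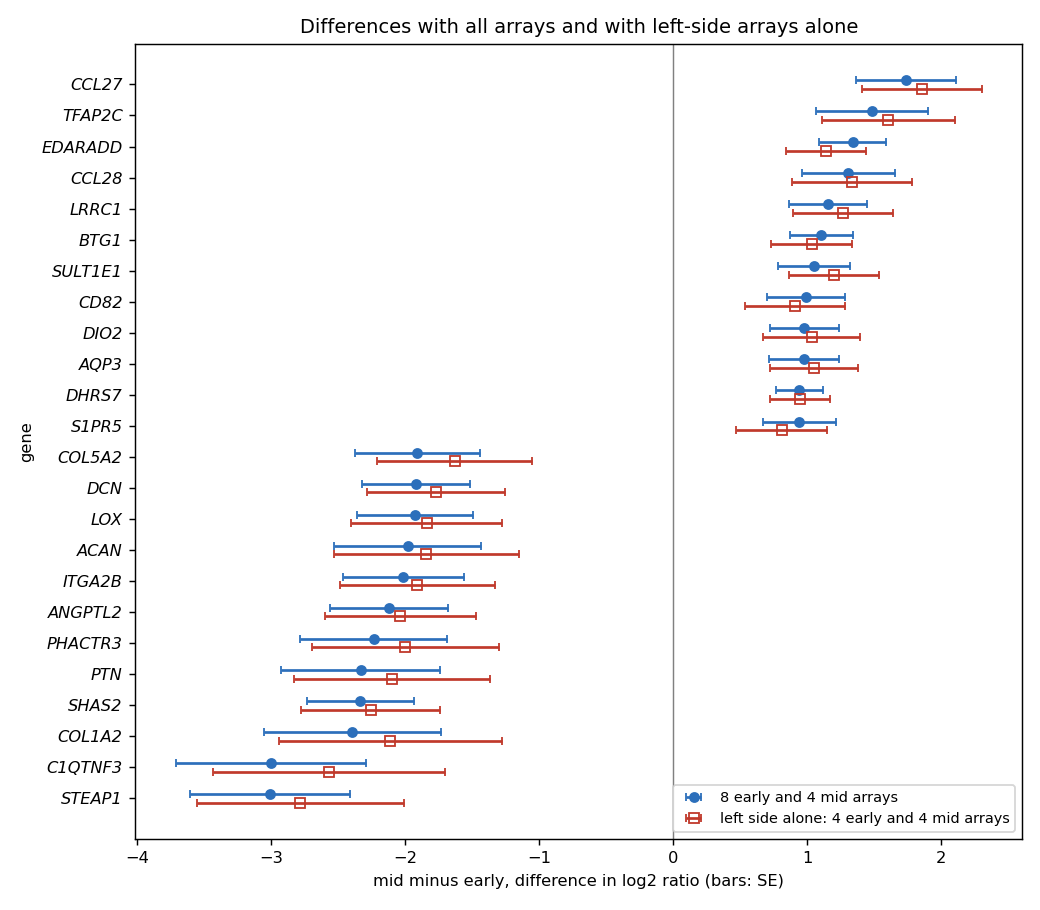
Difference between mid and early sham scar (log2 scale, bars SE) for the 24 named genes with the largest changes, with all 12 arrays (blue circles) and with the 8 left-side arrays (red squares, in a fit of 24 arrays). Genes were chosen among those of the same sign in both fits, so the shared side of 0 is part of the choice. The bars are wider for the left side alone, as for COL1A2 at -2.39 ± 0.66 and -2.11 ± 0.83.

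Both phases were present on 3 of the 7 slides. On slide 1, with 1 early and 1 mid array, 1191 of 1195 called features with a value had the direction of the whole comparison. On slide 6, with 3 early and 1 mid array, it was 1207 of 1207, and on slide 3, with 1 of each, 950 of 1195 (79.5%). The mid array on slide 3 was the hypo array of pig 50. Over all features the shares were 77.3, 79.0 and 55.9%. The same arrays had entered the fit that called the features, so these shares are a description and no test. With slide as a fixed block 216 features passed, 172 lower and 44 higher, among them SHAS2 (-2.32, adjusted p 0.0214), LOX (-2.17, adjusted p 0.0275), DCN (-2.11, adjusted p 0.0306), POSTN (-2.33, adjusted p 0.0306), CCL27 (1.55, adjusted p 0.031) and DHRS7 (0.83, adjusted p 0.0417). COL1A2 then missed the threshold at -2.97 (adjusted p 0.0526). Of the 68 features called and described here, 46 missed it in this fit, among them STEAP1 (adjusted p 0.0618) and PTN (adjusted p 0.117). In this fit 7 of the 28 matrix genes were lower and none of the 17 ER genes was.

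The calls also rested on how the local background was treated. The values above cap each spot's background at the 99th percentile of its array before subtraction. With no such limit, 2 features passed, both lower, and 966 had an unadjusted p below 0.05. None of the 28 matrix genes passed then, 25 had a negative difference, and their median was -1.11. With no background subtraction 1333 features passed, and 1104 passed with the values that the authors deposited.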

How the data were processed

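Each biopsy's RNA (Cy5) was hybridised with a universal pig reference RNA (Cy3) to a 2-colour Agilent array, per the labels. Median spot and local background intensities, and outlier and well-above-background flags, are deposited as Agilent Feature Extraction 10.7.1.1 wrote them, per the file headers and the submitters' processing notes. The value table deposited by the authors holds log2 ratios of Cy5 to Cy3; on each array 99.97 to 99.99% of its entries lay within 0.001 of the log2 ratio taken from the processed intensities, with column medians of 0.01 to 0.26, and further steps by the authors are not given in the sources used here.

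Here, local backgrounds above the 99th percentile within a channel were set to that percentile, then corrected by normexp with an offset of 50, and loess-normalised within arrays. Outlier spots and control spots were left out. Probes well above background in Cy5 on at least 4 of 28 arrays were kept (24510), and 0.491% of their values on the 12 arrays were missing. The brightest probe in Cy5 represented each gene symbol or accession, and a count of probes in one direction beside a gene covers all its kept probes. limma 3.58.1 in R 4.3.3 fitted all 28 arrays with 11 group means, so that the groups shared one estimate of the spread, and the pig as a fixed block. The contrast averaged hyper and hypo equally, and p-values were adjusted by the Benjamini-Hochberg method over all features. The precision is limited by the number of arrays. The pig numbers in the titles pair biopsies of the same animal; deviations from group means had a median correlation of 0.064 between arrays of the same pig in different groups and -0.0609 between pigs.

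Named are the 12 symbols with the largest called increase and decrease that kept their sign in both pigs and with left arrays, up to 4 members of lowest p per list described, 2 features without a symbol in each direction, and the 3 genes of lowest interaction p; other genes are said to be chosen after their values were seen, or are list members shown for contrast, also picked with their values in view. The comparison, the lists and the limit on the background were chosen with earlier results of these data known. Alternatives covered background, normalization, filters, probe averaging, the arrays fitted, blocks and leaving out each array. No genome build was used, so no positions or sequences are given. Results on some genes are not reported here.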

Additional observations from a re-analysis of the deposited data

Results flagged for a closer look

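In each group, the highest and the lowest array were compared with the nearest other array for the features described and for the mean of each list, and chance alone sets an array apart in about 1 of 20 such groups. Of 274 such groups of values, 26 had an array set apart. In mid scar, the hypo array of pig 50 was the highest for ANGPTL2 (3.24), MMP11 (2.23), TMED3 (2.15) and RPN2 (-0.061), and the lowest for the means of the immediate early and heat shock list (-0.12) and of the T and NK cell list (-0.66). The mid hypo array of pig 49 was the highest for the means of phagocyte markers (1.0) and of oxidative phosphorylation (-0.82). The mid hyper array of pig 49 was the lowest for COL8A1 (-0.55).

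In early scar, the left hypo array of pig 50 was the lowest for TFAP2C (-0.36), RPN1 (-0.35), DSG1 (0.044), ESRP1 (-2.08), KIF21A (-1.64) and the means of keratinocyte markers (-1.12) and ER genes (-0.19). It was the highest for the means of skeletal muscle markers (-0.0025) and of myofibroblast and smooth muscle markers (0.14). The left hyper array of pig 49 was the highest for BTG1 (0.61) and for the means of the immediate early and heat shock list (1.5) and of sweat and apocrine gland markers (-0.014). The left hypo array of pig 49 was the highest for HAPLN3 (0.60) and for fibroblast markers (2.41). The left hyper array of pig 50 was the highest for HAS3 (0.99) and the lowest for the mean of matricellular genes (1.55). The right hypo array of pig 50 was the highest for the mean of activated keratinocyte genes (0.47).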

How the results depend on the processing

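The number of features past the threshold, 1207, was 2 with no limit on the local background, 216 with slide as a fixed block, 1910 in a fit of the 12 arrays alone, and 0 with left-side arrays, both in the fit that kept the other groups and in one of the 8 left arrays. Leaving out 1 array gave 24 to 1811. Without the replicate block for the pig it was 1112, and 9 of the 68 features called and described here then missed the threshold. The other alternatives, among them no background subtraction, processed signals, the authors' value table, other filters and a random slide block (correlation 0.0628), gave 867 to 1333. Median centring in place of loess gave 1132, of which 91.3% were lower, against 65.4% with loess; the median of all features was then -0.05 in place of 0.04. Of the 68 features, all 68 missed the threshold with no background limit and with left arrays, 46 with slide as a fixed block and 62 without the mid hypo array of pig 49. The interaction gave 0 calls, and 0 to 8 when 1 array was left out, 8 without the mid hyper array of pig 49 and 6 without that of pig 50. Signs turned for INHBA (-0.35) and RSC1A1 (0.047) with the mean over probes and for GFPT1 (0.010) with no background limit; the cause was not tested. Signal over background limits dim features: without the filter 36506 were tested and 867 passed.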
